A study of Mus musculus with 30 samples.

Results

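The Fc gamma receptors bind the constant part of IgG, and 6 genes were followed here: the activating receptors Fcgr1, Fcgr3 and Fcgr4, the inhibitory receptor Fcgr2b, the signalling chain Fcer1g that the activating receptors share, and Fcgrt, the heavy chain of the neonatal Fc receptor. They were taken by gene symbol, as 6 of the 25611 gene entries of the count table. All 6 passed the filter on low counts that left 14808 genes to test. RNA was sequenced from mouse dendritic cells, which had formed in bone marrow cultures over 6 to 7 days in the presence of the cytokine FLT3L (200 ng/ml). The cells were wild type (WT) or carried a knockout of Rubcn (KO), the gene of Rubicon, a protein needed for LC3-associated phagocytosis. Each genotype was left untreated, or was exposed for 30 min or for 4 h to OVA protein (ovalbumin, a soluble antigen) or to apoptotic Jurkat cells. Jurkat is an established human line of leukaemic T cells. This gave 10 groups of 3 libraries, 30 in all. The labels give no time for the untreated libraries, and the same untreated libraries of a genotype serve both times. In comparisons with untreated cells, the agent therefore cannot be told apart from time in culture and handling. No antibody is named among the agents, and FLT3L was common to every group. The labels give no mouse strain, age or sex, no kind of knockout allele, and not whether the 3 libraries of a group came from separate mice or cultures. The p-values therefore measure the spread between these libraries, which may be technical.

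An IgG-coated particle that clusters an activating receptor leads Src-family kinases to phosphorylate the activation motif (ITAM) in the Fcer1g chain, which recruits the kinase Syk and starts phagocytosis. Fcgr2b carries an inhibitory motif (ITIM) of its own, recruits the lipid phosphatase encoded by Inpp5d, and sets a threshold on the activating receptors in dendritic cells. The neonatal receptor, FcRn, pairs with beta-2-microglobulin, binds IgG in acidic endosomes, and in dendritic cells routes IgG-bound antigen towards presentation.

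Levels are given as CPM, counts brought to a common depth with library sizes scaled by TMM factors, in replicates 1, 2 and 3 or as mean ± SD over 3 libraries. A log2 difference with its standard error (SE) comes from edgeR's quasi-likelihood test on the counts, in 1 model of all libraries. FDR is always the Benjamini-Hochberg adjusted p of that test over the 14808 genes, and a gene was called at an FDR under 0.05. Where libraries of compared groups are said to lie apart or not to overlap, this only describes them. The share of all genes tested that do not overlap was not computed, so a lack of overlap does not set the members apart from other genes. In bulk RNA of this kind, fewer cells of a type and less RNA per cell cannot be told apart.

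Total counts ran from 9.73 M in KO OVA 30 min replicate 3 to 51.6 M counts, with the second lowest at 38.7 M. Rubcn ranged from 56.05 to 104.6 CPM in WT and from 44.36 to 75.78 CPM in KO libraries, was lower in every KO library than in every WT library of the same condition, and was called in all 5 conditions, by between -0.24 and -0.44 on the log2 scale. Dendritic cell markers were abundant, with Flt3 at 567 and 554 CPM and Cd74 at 9260 and 9700 CPM in untreated WT and KO cells. Markers of other cells differed between the genotypes, beside 6% of all genes tested called higher and 3.97% lower in untreated KO cells. Of 10 basophil or mast cell markers, 8 were called higher in untreated KO than in WT cells, with a summed level of 165.3 to 177.5 CPM in WT and 212.6 to 243.2 CPM in KO libraries (Mcpt8 3.57 against 17.1 CPM). Most of that sum was Kit, at 130 CPM in WT and 137 CPM in KO cells. Of 10 plasmacytoid dendritic cell markers, 5 were called lower and 1 higher in untreated KO cells, with sums of 2870 to 2888 CPM in WT and 2445 to 2598 CPM in KO. The 14 of 28 T-cell markers with a mean under 1 CPM in untreated cells summed to at most 5.405 CPM in libraries without Jurkat cells, and at 4 h of Jurkat cells to 90.39 to 119.2 CPM in WT and 67.52 to 86.36 CPM in KO. How reads of the human cells were handled was not given in the sources used here, and their part in the members' counts was not tested.

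One library stood apart. In KO Jurkat 4 h replicate 2, 3.9% of all counts were in Rn45s, the gene of the ribosomal RNA precursor, against 0.0949% to 0.384% in the other 29 libraries. Its counts differed from those of replicates 1 and 3 by a mean chi-square of 129.1 and 134.1 per gene, against at most 16.66 for every other pair of libraries of a group. Without Rn45s, Lars2 and Mir6236, chosen after their values were seen, these became 6.576 and 4.83, and all pairs lay between 2.255 and 15.32. The members' calls that rest on this library are given with and without it. Partner genes, gene lists and marker sums were not refitted without it and are given with it only. Of the ratios of counts described below, only that of Fcgr1 to Fcgr2b is given both ways.

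Fcgr2b, Fcgr4, Fcgr3 and Fcer1g lie within 273.8 kb of chromosome 1 on the mm10 build, in a stretch that holds 12 annotated genes. In that order along the chromosome, Fcgr2b (Entrez 14130, minus strand) occupies chr1:170960559-170976071, Fcgr4 (246256, plus strand) chr1:171018926-171029761, Fcgr3 (14131, minus strand) chr1:171051169-171059403 and Fcer1g (14127, minus strand) chr1:171229572-171234349. Fcgr1 (14129, minus strand) lies apart at chr3:96282909-96293969, and Fcgrt (14132, minus strand) at chr7:45092993-45103822.

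Fcgr1 and Fcgr4 were the receptors that rose with Jurkat cells and were lower in KO cells at 4 h, so the 250 bases upstream of each are shown, 5′ to 3′ on the gene's strand, from RefSeq on GRCm38.p6. The Fcgr1 window is chr3:96293970-96294219 on the minus strand, with capitals marking a match to the letters of an interferon gamma activated site, TTCNNNGAA, from 109 to 101 bases upstream of the start. The Fcgr4 window is chr1:171018676-171018925 on the plus strand, with capitals marking a match to the letters of an interferon-stimulated response element (GAAA, any 2 bases, GAAA), from 73 to 64 bases upstream.
Fcgr1: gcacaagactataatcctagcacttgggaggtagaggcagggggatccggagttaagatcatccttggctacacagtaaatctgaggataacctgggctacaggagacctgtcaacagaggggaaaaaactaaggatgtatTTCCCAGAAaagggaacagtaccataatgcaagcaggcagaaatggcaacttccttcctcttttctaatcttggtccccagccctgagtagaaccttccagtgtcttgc
Fcgr4: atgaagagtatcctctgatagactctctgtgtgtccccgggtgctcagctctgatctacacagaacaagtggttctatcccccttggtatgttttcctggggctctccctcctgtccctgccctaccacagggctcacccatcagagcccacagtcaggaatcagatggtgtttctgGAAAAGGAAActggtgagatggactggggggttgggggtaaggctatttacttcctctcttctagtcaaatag
Each window held 1 of these motifs and not the other. Both strands were searched, and the other 4 members held neither in their own 250 bases. Over 27025 windows of the same length, 7.18% held the activated site and 3.04% the response element, and these matches describe letters only.

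Fcgr2b and Fcgr3 share the sequence of their IgG-binding part, which bears on how reads could be assigned to them. Their coding sequences were 96.5% identical over 509 aligned bases, against 72.3% to 78.7% for the other pairs among the 4 receptors. The longest run without a difference was 129 bases of spliced coding sequence, which lies between chr1:170966674-170968081 for Fcgr2b and chr1:171054167-171057792 for Fcgr3, both on the minus strand, in the GENCODE M21 transcripts.
Shared run of Fcgr2b and Fcgr3: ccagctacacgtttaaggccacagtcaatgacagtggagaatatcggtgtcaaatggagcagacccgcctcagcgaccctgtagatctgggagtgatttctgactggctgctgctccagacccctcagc
Of the 50-base words in the Fcgr3 coding transcripts, 10.2% (166 of 1627) also occurred in another gene, all in Fcgr2b. Fcgr2b shared 10.7% of its words, 166 with Fcgr3, and Fcgr1, Fcgr4, Fcer1g and Fcgrt shared 0. How such reads were counted is not given in the sources used here, so the split of counts between Fcgr2b and Fcgr3 is uncertain.

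Levels were also divided by the kb of coding-transcript exon that lay within the gene's interval in the count table. On this scale Fcer1g was the most abundant member in untreated WT cells at 396 CPM per kb. Fcgrt followed at 123, Fcgr2b at 77.9, Fcgr3 at 35.6, Fcgr1 at 8.66 and Fcgr4 at 6.64 CPM per kb. The inhibitory receptor thus stood above each activating receptor on this scale, where Fcgr2b had 1.546 kb of exon. All annotated exons of Fcgr2b came to 5.79 kb. Dividing by all annotated exons put Fcgr2b at 20.8 and Fcgr3 at 27.6 CPM per kb and turned that pair round. After 4 h with Jurkat cells the WT order was Fcer1g at 748, Fcgr1 at 47.9, Fcgr2b at 31.7, Fcgrt at 23.1, and Fcgr3 and Fcgr4 both at 17.4 CPM per kb. Fcgr1 moved above Fcgr2b and Fcgrt.

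**Figure D1:**
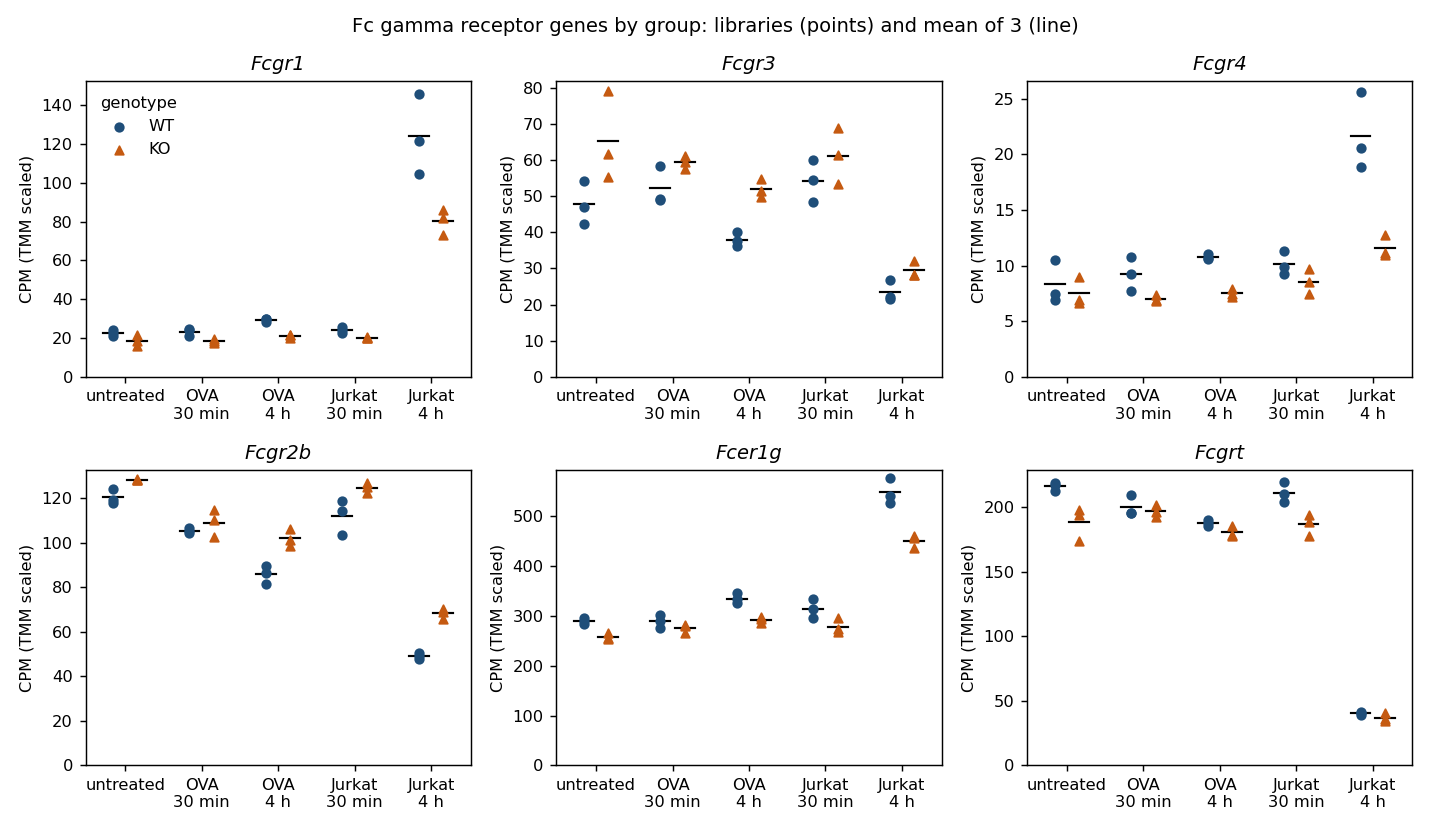
Level of each of the 6 genes in CPM (y axis) in the 10 groups (x axis), with 1 point per library, circles for WT and triangles for KO, and a line at the mean of 3. The 4 h Jurkat groups stand apart for every gene except Fcgr4 in KO cells, with Fcgr1 and Fcer1g high and Fcgr2b, Fcgr3 and Fcgrt low.

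The response to 4 h of Jurkat cells involved every member in both genotypes. Fcgr1, Fcgr4 and Fcer1g rose, and Fcgr3, Fcgr2b and Fcgrt fell, so 6 of 6 were called in WT, where 79.5% of all genes tested were called, and 6 of 6 in KO, where 78.5% were. With so wide a background, the count itself is close to that of any 6 genes, so sizes and directions are described. In WT, 8.14% of all genes tested lay at least as far from 0 as Fcgr1, and 8.40% as Fcgrt. For Fcgr4, Fcgr2b, Fcgr3 and Fcer1g these shares were 19.5%, 21.6%, 29.15% and 33.3%, so such sizes were common. In KO the shares were 9.15%, 7.76%, 43.7%, 30.2%, 22.6% and 34.8% in the same order of genes. The members' median log2 difference was -0.06 in WT and -0.14 in KO cells, beside -0.02 and -0.03 over all genes tested. Scaling by total counts in place of TMM moved the all-gene median to -0.42 in WT and -0.37 in KO cells and kept each member's direction. Without KO Jurkat 4 h replicate 2 all 6 members were still called in KO cells, with log2 differences of 2.18 for Fcgr1, 0.67 for Fcgr4, -1.12 for Fcgr3, -0.88 for Fcgr2b, 0.83 for Fcer1g and -2.30 for Fcgrt. Set against OVA, all 6 were also called without it.

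At 4 h of OVA, in WT cells, Fcgr1, Fcgr4 and Fcer1g were again called higher and Fcgr3, Fcgr2b and Fcgrt lower (6 of 6, against 23.5% of all genes tested). In KO cells Fcer1g was called higher and Fcgr3 and Fcgr2b lower (3 of 6, against 11.6%). The OVA and Jurkat comparisons of a genotype share its 3 untreated libraries. Set against OVA at the same time, 4 h of Jurkat cells called 6 of 6 members in WT and in KO cells, against 77.5% and 76.4% of all genes. With total counts Fcgr4 was not called there in KO cells (0.29, FDR 0.0529).

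At 30 min little moved. With OVA, Fcgr2b alone was called lower than in untreated cells, 1 of 6 in WT (10.7% of all genes) and 1 of 6 in KO cells (3.77%). Jurkat cells gave 0 of 6 calls in WT (28.7% of all genes called) and 0 of 6 in KO cells (17%) with edgeR, while 3 members in WT and 1 in KO had an unadjusted p under 0.05. DESeq2 also called 0 in each. In WT, a call appeared without WT untreated replicate 1 for Fcgr4 (0.49, FDR 0.00872), without WT Jurkat 30 min replicate 3 for Fcer1g (0.15, FDR 0.0233) and without WT Jurkat 30 min replicate 1 for Fcgr2b (-0.15, FDR 0.0298). Between Jurkat cells and OVA at 30 min, 0 of 6 were called in WT (24.3%) and 1 of 6 in KO (10.2%), which was Fcgr2b at 0.19. The WT comparison gained Fcer1g without WT Jurkat 30 min replicate 3 (FDR 0.0182) or WT OVA 30 min replicate 3 (FDR 0.0286), and Fcgr2b without WT Jurkat 30 min replicate 3 (0.14, FDR 0.0238).

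**Figure D2:**
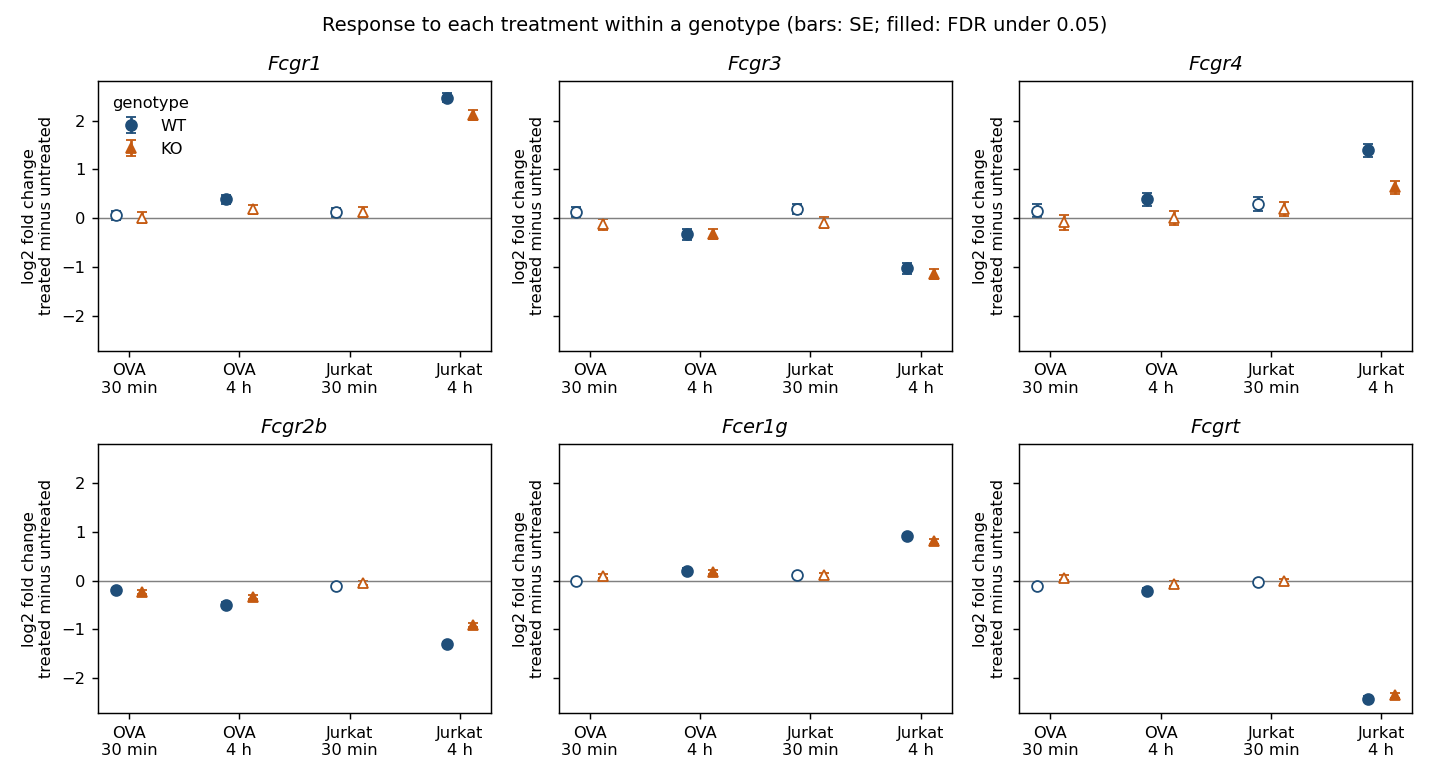
Log2 difference from untreated cells (y axis) of the 6 genes after each treatment in WT and KO cells, with SE bars and filled points where FDR was under 0.05. The 4 h Jurkat values run from -2.42 for Fcgrt to 2.47 for Fcgr1, both in WT.

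Between the genotypes, the members did not move in 1 direction. At 4 h of Jurkat cells, KO cells had more Fcgr3 and Fcgr2b and less Fcgr1, Fcgr4 and Fcer1g (5 of 6 called, against 22.9% of all genes tested, with 9.37% higher and 13.5% lower in KO). The same 5 genes were called the same way at 4 h of OVA (against 12.6%). In untreated cells Fcgr3 was called higher and Fcer1g and Fcgrt lower (3 of 6, against 9.97%). At 30 min, OVA-treated KO cells differed in Fcgr1 alone (1 of 6, against 12.4%), and Jurkat-treated KO cells had more Fcgr2b and less Fcer1g and Fcgrt (3 of 6, against 9.25%). The member medians of these log2 differences lay between -0.20 and -0.05, beside all-gene medians within 0.01 of 0.

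The calls at 30 min rested on few libraries. Without KO Jurkat 30 min replicate 1, or without WT Jurkat 30 min replicate 2, 0 of 6 members were called between the genotypes there. The 5 calls at 4 h of OVA held in all 9 other ways of processing and without any 1 library. For Jurkat cells at 4 h this was so for Fcgr1, Fcgr4, Fcgr2b and Fcer1g, and Fcgr3 is described below. Without KO Jurkat 4 h replicate 2, 4 of 6 were called between the genotypes there: Fcgr1 at -0.56, Fcgr4 at -0.86, Fcgr2b at 0.51 and Fcer1g at -0.26, while Fcgr3 stood at 0.36 (FDR 0.067) and Fcgrt at -0.08 (FDR 0.362).

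**Figure D3:**
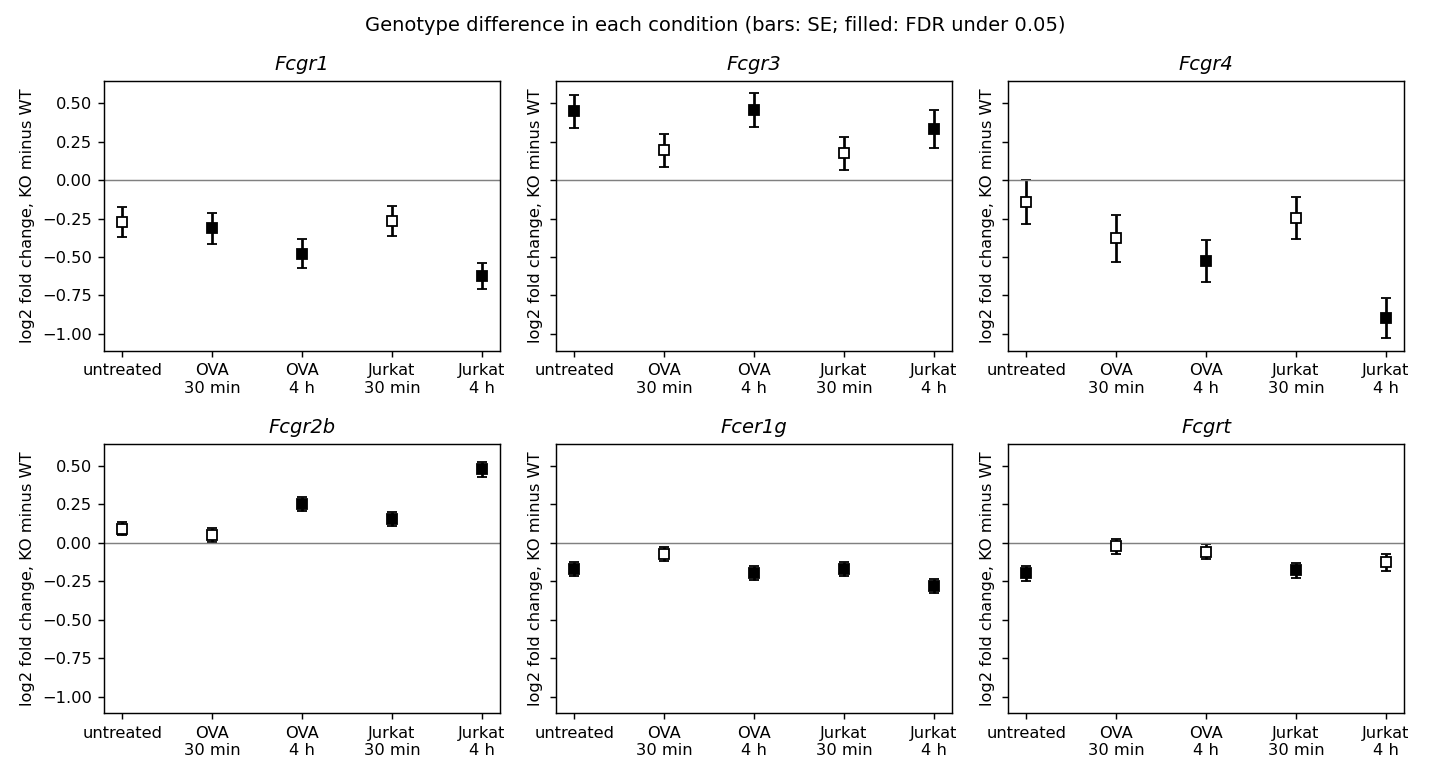
Log2 difference of KO minus WT (y axis) for the 6 genes in each of the 5 conditions, with SE bars and filled points where FDR was under 0.05. Fcgr1, Fcgr4 and Fcer1g lie below 0 and Fcgr3 and Fcgr2b above 0 in all 5 conditions (untreated Fcgr4 turns to 0.06 without WT untreated replicate 1), farthest from 0 at 4 h of Jurkat cells for all of these but Fcgr3.

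Fcgr1 encodes the high-affinity activating receptor, which binds single IgG molecules. Untreated WT libraries held 23.84, 22.42 and 21 CPM and untreated KO libraries 21.36, 18.55 and 15.81 CPM. After 4 h with Jurkat cells WT libraries held 104.5, 145.9 and 121.5 CPM and KO libraries 85.98, 73.22 and 81.9 CPM. Every Jurkat 4 h library lay above every untreated one, and the WT libraries all lay above the KO libraries at that time. Fcgr1 rose 5.53-fold in WT (log2 2.47, SE 0.0924, FDR 3.09e-20) and 4.33-fold in KO cells (log2 2.11, SE 0.0936, FDR 2.01e-18).

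The level of Fcgr1 was lower in KO cells by 0.62 on the log2 scale at 4 h of Jurkat cells (1.54-fold, SE 0.0851, FDR 6.64e-06). After 4 h of OVA it was 29.85, 29.68 and 28.04 CPM in WT and 21.39, 21.4 and 20.01 CPM in KO cells, again without overlap (log2 -0.48, SE 0.0953, FDR 0.000772). At 4 h of OVA it was 1.3-fold higher than in untreated cells in WT (FDR 0.00358), and in KO cells the log2 difference was 0.18 (FDR 0.289). The test of that difference between genotypes gave -0.21 (FDR 0.752), so the response to OVA was not shown to differ between them.

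In the other conditions the Fcgr1 differences between genotypes were of similar size and close to the threshold. The log2 difference was -0.27 in untreated cells (FDR 0.0784), -0.31 at 30 min of OVA (FDR 0.0432) and -0.27 at 30 min of Jurkat cells (FDR 0.0856). DESeq2 called it in untreated cells (FDR 0.0308) and at 30 min of Jurkat cells (FDR 0.0428). The latter was also called with the groups fitted alone (FDR 0.0286). Without KO untreated replicate 1 the untreated difference became -0.38 (FDR 0.0218), and without KO untreated replicate 3 it became -0.17 (FDR 0.364). The call at 30 min of OVA was lost without KO OVA 30 min replicate 1, 2 or 3 or WT OVA 30 min replicate 1 or 3, with FDR between 0.096 and 0.138. It was also lost with a stricter filter on low counts (FDR 0.0522). The difference between genotypes in the response to 4 h of Jurkat cells was -0.35 (SE 0.129, FDR 0.123), and it passed the threshold without KO untreated replicate 3 (-0.46, FDR 0.0393) or WT Jurkat 4 h replicate 1 (-0.46, FDR 0.0225). It fell to -0.22 without WT Jurkat 4 h replicate 2 (FDR 0.343), and was -0.29 without KO Jurkat 4 h replicate 2 (FDR 0.261).

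Ordered by mean level, the 7 lowest Fcgr1 groups, from KO OVA 30 min at 18.43 to WT Jurkat 30 min at 24.27 CPM, overlapped with their neighbours. WT OVA 4 h (29.19 ± 1), KO Jurkat 4 h (80.37 ± 6.52) and WT Jurkat 4 h (124 ± 20.8 CPM) each lay clear of the group before.

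Fcgr4 encodes an activating receptor of intermediate affinity, and was the least abundant member. Its lowest count was 71, in the shallow KO OVA 30 min replicate 3. Untreated cells held 10.51, 7.46 and 6.939 CPM in WT and 8.966, 6.903 and 6.672 CPM in KO libraries, which overlapped. After 4 h with Jurkat cells the WT libraries held 18.86, 25.65 and 20.55 CPM and the KO libraries 12.76, 10.91 and 11.17 CPM. No library of either genotype overlapped with its untreated libraries, and the genotypes lay apart.

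The rise of Fcgr4 with 4 h of Jurkat cells was 2.61-fold in WT (log2 1.39, SE 0.133, FDR 1.24e-10) and 1.55-fold in KO cells (log2 0.63, SE 0.14, FDR 0.000182). Scaling by total counts left the KO rise at 0.29 (FDR 0.0513). The difference in response was -0.76 (SE 0.193, FDR 0.0234), with 4.26% of all genes tested called in this comparison, and Fcgr4 and Fcgr2b were the 2 of 6 members called. It was lost with the 4 groups fitted alone (-0.72, FDR 0.0781). It was also lost without KO Jurkat 4 h replicate 2 or 3, KO untreated replicate 1, WT Jurkat 4 h replicate 2 or WT untreated replicate 2 or 3, with values from -0.61 to -0.73 and FDR from 0.0547 to 0.0908.

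At 4 h, Fcgr4 was lower in KO than in WT cells after Jurkat cells by 0.90 on the log2 scale (1.87-fold, SE 0.131, FDR 1.54e-05), the largest such difference among the members. After OVA for 4 h the WT libraries held 10.72, 11.07 and 10.56 CPM and the KO libraries 7.406, 7.166 and 7.898 CPM, with no overlap (log2 -0.53, SE 0.139, FDR 0.0105). The WT increase over untreated cells at that time was 0.38 (FDR 0.0434), while the KO mean was 7.49 CPM with OVA and 7.51 CPM untreated (FDR 0.997). That WT increase rested on single libraries: it was lost without WT OVA 4 h replicate 1, 2 or 3 (FDR 0.0827, 0.109 and 0.0695) and without WT untreated replicate 2 or 3 (0.31 with FDR 0.167, and 0.26 with FDR 0.234), and rose to 0.58 without WT untreated replicate 1 (FDR 0.00261). In untreated cells and at 30 min the genotype differences, from -0.14 to -0.38, were not called. At 30 min of OVA the genotypes did not overlap. A call appeared there with DESeq2 (-0.40, FDR 0.0424) and with the groups fitted alone (-0.37, FDR 0.0377). The untreated difference ran from -0.29 without KO untreated replicate 1 to 0.06 without WT untreated replicate 1. In the order of Fcgr4 levels, WT Jurkat 4 h alone lay clear of its neighbour.

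Fcgr3 encodes a low-affinity activating receptor, which binds IgG in immune complexes. Untreated WT libraries held 54.21, 47.05 and 42.47 CPM and KO libraries 79.08, 61.63 and 55.44 CPM. After Jurkat cells for 4 h the WT libraries held 22.17, 26.73 and 21.42 CPM and the KO libraries 32.09, 28.18 and 28.23 CPM. The genotypes lay apart at both, and all Jurkat libraries lay below all untreated ones.

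Fcgr3 thus fell where Fcgr1 and Fcgr4 rose, by 1.03 on the log2 scale in WT (2.04-fold, SE 0.116, FDR 3.37e-09) and by 1.15 in KO cells (2.22-fold, SE 0.112, FDR 1.84e-10). It fell with 4 h of OVA by 0.33 in WT (FDR 0.0256) and by 0.33 in KO cells (FDR 0.0425). The WT fall with OVA was lost without WT OVA 4 h replicate 2 (FDR 0.0676) or 3 (FDR 0.0883) and without WT untreated replicate 1 (-0.24, FDR 0.149). The KO fall was lost without KO OVA 4 h replicate 1, 2 or 3 (FDR 0.0656, 0.11 and 0.143), without KO untreated replicate 2 (FDR 0.0505), and without KO untreated replicate 1, where it was -0.17 (FDR 0.354).

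Of the activating receptors, Fcgr3 was the one with more RNA in KO cells. After 4 h with OVA the WT libraries held 40.11, 37.69 and 36.19 CPM and the KO libraries 54.79, 51.46 and 49.85 CPM, without overlap (log2 0.46, 1.37-fold, SE 0.109, FDR 0.00467). The difference was 0.45 in untreated cells (SE 0.107, FDR 0.00553) and 0.33 at 4 h of Jurkat cells (SE 0.121, FDR 0.0463). At 30 min it was 0.19 with OVA (FDR 0.262) and 0.17 with Jurkat cells (FDR 0.352).

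Single libraries decided part of this. Without KO untreated replicate 1, the highest library, the untreated difference was 0.29 (FDR 0.0961), and without WT untreated replicate 3 it was 0.37 (FDR 0.0516). KO untreated replicate 1 was also the library with the highest sum of 15 monocyte or macrophage markers among the untreated ones, at 6164 CPM against 5227 and 5228 CPM in the other KO and 4971 to 5715 CPM in the WT libraries. Their part in the result was not tested. The call at 4 h of Jurkat cells was lost without KO Jurkat 4 h replicate 1 (0.27, FDR 0.168), 2 (FDR 0.067) or 3 (FDR 0.0592) or WT Jurkat 4 h replicate 1 (FDR 0.137) or 3 (FDR 0.162), with DESeq2 (FDR 0.0512) and with its size factors in edgeR (FDR 0.055). By mean level, WT Jurkat 4 h, KO Jurkat 4 h, WT OVA 4 h and untreated WT were the 4 lowest Fcgr3 groups and lay clear of one another.

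Fcgr2b encodes the inhibitory receptor. Untreated WT libraries held 119.2, 124.3 and 117.7 CPM and KO libraries 128.2, 128.8 and 128.2 CPM, which lay apart by little (log2 0.09, SE 0.0447, FDR 0.224). After 4 h with Jurkat cells WT libraries held 50.5, 49.01 and 47.61 CPM and KO libraries 68.83, 65.57 and 70.44 CPM. Every KO library was above every WT library, and all were below the untreated ones. The fall was 2.45-fold in WT (log2 -1.30, SE 0.0473, FDR 1.67e-20) and 1.88-fold in KO cells (log2 -0.91, SE 0.046, FDR 5.01e-17).

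Fcgr2b fell less in KO than in WT cells, by a difference in response of 0.38 (SE 0.0656, FDR 0.00109), and the call held under all 9 other ways of processing and without any 1 library (0.36 to 0.41). KO cells thus held 1.39-fold more Fcgr2b at 4 h of Jurkat cells (log2 0.48, SE 0.048, FDR 7.1e-08). OVA-treated WT libraries at 4 h held 89.42, 86.52 and 81.6 CPM and KO libraries 101.2, 106.4 and 98.66 CPM, apart again (log2 0.25, SE 0.0454, FDR 0.000258). At 4 h of OVA it was lower than in untreated cells by 0.49 in WT (FDR 2.75e-09) and by 0.33 in KO cells (FDR 6.58e-06). The difference in the response to OVA, 0.16 (FDR 0.585), was not called, as for all 6 members at 4 h of OVA and at 30 min of either agent. Of all genes, 0.0405% were called at 4 h of OVA, 0% at 30 min of OVA and 0.00675% at 30 min of Jurkat cells.

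Fcgr2b was the member called lower at 30 min of OVA than in untreated cells, by 0.19 in WT (SE 0.0449, FDR 0.00504) and by 0.24 in KO cells (SE 0.0458, FDR 0.00245). The KO call was lost without KO OVA 30 min replicate 2 (-0.19, FDR 0.0565). So was the difference of 0.19 between Jurkat cells and OVA in KO cells at 30 min (0.15, FDR 0.0796). Between the genotypes at 30 min of Jurkat cells, Fcgr2b was higher in KO by 0.15 (FDR 0.0273), a call lost with the 2 groups fitted alone (FDR 0.0938) and without KO Jurkat 30 min replicate 1 (FDR 0.0589) or 3 (FDR 0.105) or WT Jurkat 30 min replicate 2 (FDR 0.0533) or 3 (0.10, FDR 0.164). The 4 lowest groups, WT and KO Jurkat 4 h and then WT and KO OVA 4 h, lay clear of one another.

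Basophils, mast cells and B cells carry Fcgr2b, and some of these cells also carry Fcgr3. At 4 h of Jurkat cells the 10 basophil or mast cell markers summed to 211.9 to 224.1 CPM in WT and 285.6 to 314.4 CPM in KO libraries, with 8 called higher in KO. That sum holds Kit, which ran from 119 to 153 CPM over all libraries. The 10 B cell markers summed to 38.2 to 41.47 CPM in WT and 48.06 to 50.74 CPM in KO libraries, with 3 called higher. Markers of conventional dendritic cells type 2, a subset that carries these receptors, summed to 1229 to 1315 CPM in WT and 1348 to 1446 CPM in KO, with 5 of 10 called higher and 1 lower. Over all genes tested, 9.37% were called higher and 13.5% lower in KO at 4 h of Jurkat cells. The part of these cells in the higher Fcgr2b and Fcgr3 of KO cells was not tested.

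Fcer1g encodes the chain that brings the ITAM to Fcgr1, Fcgr3 and Fcgr4 and that these receptors need at the cell surface. Untreated WT libraries held 283, 295.6 and 290.1 CPM and KO libraries 264.7, 255.9 and 252.6 CPM. Jurkat cells for 4 h brought them to 526.2, 576.5 and 540.8 CPM in WT and to 460.6, 436.2 and 454.9 CPM in KO. The genotypes lay apart in both conditions. Fcer1g rose 1.89-fold in WT (log2 0.92, SE 0.0461, FDR 3.71e-17) and 1.75-fold in KO cells (log2 0.81, SE 0.0461, FDR 9.96e-16), and the difference in response was -0.11 (FDR 0.356).

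KO cells held less Fcer1g by 0.28 on the log2 scale at 4 h of Jurkat cells (1.22-fold, SE 0.0457, FDR 5.68e-05). OVA-treated WT libraries held 332.8, 344.7 and 325.8 CPM at 4 h and KO libraries 297.2, 293.1 and 285.2 CPM (log2 -0.20, SE 0.0458, FDR 0.00371). The untreated difference, -0.17 (FDR 0.0166), was lost without KO untreated replicate 2 (FDR 0.0584) or 3 (FDR 0.0644) or WT untreated replicate 2 (FDR 0.0789). At 30 min of Jurkat cells it was also -0.17 (FDR 0.0157), lost with the 2 groups fitted alone (FDR 0.0884) and without KO Jurkat 30 min replicate 1 (FDR 0.0734) or 2 (FDR 0.0666) or WT Jurkat 30 min replicate 1 (-0.13, FDR 0.121) or 2 (FDR 0.0533). At 30 min of OVA the difference was -0.07 (FDR 0.34). Untreated KO cells were the lowest of the 10 groups, clear of the next.

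Plasmacytoid dendritic cell markers moved the same way as Fcgr1, Fcgr4 and Fcer1g. They summed to 6004 to 7144 CPM in WT and 4607 to 5214 CPM in KO libraries at 4 h of Jurkat cells. In KO, 7 of 10 were called lower and 1 higher, where 13.5% of all genes tested were called lower and 9.37% higher. That list holds Irf7, which ran from 62.9 to 2830 CPM over the 30 libraries. Untreated, Irf7 stood at 157 CPM in WT and 74.3 CPM in KO cells. The sum therefore also follows the level of that gene. Of the 15 monocyte or macrophage markers, 2 were called lower and 1 higher at 4 h of Jurkat cells, near the shares of all genes. Their sums overlapped, at 5156 to 5601 CPM in WT and 5127 to 5703 CPM in KO. In untreated KO cells 2 of that list were called higher and 1 lower, beside 6% and 3.97% of all genes tested. The part of these cells in the lower Fcgr1, Fcgr4 and Fcer1g was not tested.

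Fcgrt, the FcRn heavy chain, had the largest fall of the 6. Untreated libraries held 212.4, 218.9 and 217 CPM in WT and 174, 197.5 and 193.8 CPM in KO. After 4 h with Jurkat cells they held 41.74, 38.81 and 40.7 CPM in WT and 40.6, 34.77 and 35.72 CPM in KO. All 6 libraries at 4 h of Jurkat cells lay far below every other library, and the genotypes overlapped there. The fall was 5.34-fold in WT (log2 -2.42, SE 0.0528, FDR 1.24e-25) and 5.09-fold in KO cells (log2 -2.35, SE 0.0527, FDR 2.75e-25), with a difference in response of 0.07 (FDR 0.653).

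Fcgrt fell with 4 h of OVA by 0.20 in WT (FDR 0.00263), from 216.1 ± 3.32 to 188 ± 2.15 CPM, and the KO difference was -0.06 (FDR 0.492). Untreated KO cells held less than WT cells (log2 -0.20, SE 0.0483, FDR 0.00693), and this was lost without KO untreated replicate 1, the lowest library (-0.14, FDR 0.0843). At 30 min of Jurkat cells the difference was -0.18 (FDR 0.0181), and it was lost without KO Jurkat 30 min replicate 1 (FDR 0.0904) or WT Jurkat 30 min replicate 2 (FDR 0.113). At 4 h the genotype differences were -0.06 with OVA (FDR 0.521) and -0.13 with Jurkat cells (FDR 0.0896). The latter passed the threshold without KO Jurkat 4 h replicate 1 (-0.20, FDR 0.0102), with DESeq2 (FDR 0.0381) and with its size factors in edgeR (FDR 0.0451).

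A ratio of counts within a library does not depend on the scaling between libraries. Each activating receptor was set against Fcgr2b in this way, and Fcgrt against B2m, and group means of the log2 ratio were compared with an exact two-sided permutation test. With 3 libraries against 3 that exact permutation test cannot go below p = 0.1, and over the 68 comparisons made the smallest adjusted p was 0.194, so no ratio could pass a threshold and the separation of the libraries is given.

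The ratio of Fcgr1 to Fcgr2b was lower in every KO library than in every WT library of the same condition, in all 5 conditions. In untreated cells it was 0.2, 0.18 and 0.178 in WT and 0.167, 0.144 and 0.123 in KO, and with 4 h of OVA 0.334, 0.343 and 0.344 against 0.211, 0.201 and 0.203. With 4 h of Jurkat cells it was 2.07, 2.98 and 2.55 in WT and 1.25, 1.12 and 1.16 in KO. The KO libraries were lower on average by 1.3-fold, 1.66-fold and 2.13-fold in those 3 conditions (exact permutation p = 0.1 each, adjusted p 0.194). The log2 difference at 4 h of Jurkat cells was -1.09, and -1.06 without KO Jurkat 4 h replicate 2. Compared with untreated cells, the ratio at 4 h of Jurkat cells was 13.5-fold higher in WT and 8.18-fold higher in KO cells, without overlap.

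The ratio of Fcgr4 to Fcgr2b followed the same course except in untreated cells, where the genotypes overlapped. With 4 h of Jurkat cells it was 0.374, 0.523 and 0.432 in WT and 0.185, 0.166 and 0.159 in KO, 2.58-fold lower in KO. In OVA-treated cells at 4 h it was 1.71-fold lower, again without overlap. Compared with untreated cells it was 6.47-fold higher at 4 h of Jurkat cells in WT and 2.93-fold higher in KO.

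For Fcgr3, the low-affinity activating receptor, the ratio to Fcgr2b stayed between 0.361 and 0.617 over all 30 libraries. The genotypes overlapped in 4 of 5 conditions, among them untreated cells (log2 difference 0.35, exact permutation p = 0.2) and 4 h of Jurkat cells (-0.14, exact permutation p = 0.4). At 4 h of OVA they did not (0.20). Fcgr3 and Fcgr2b are also the pair whose transcripts share identical sequence.

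**Figure D4:**
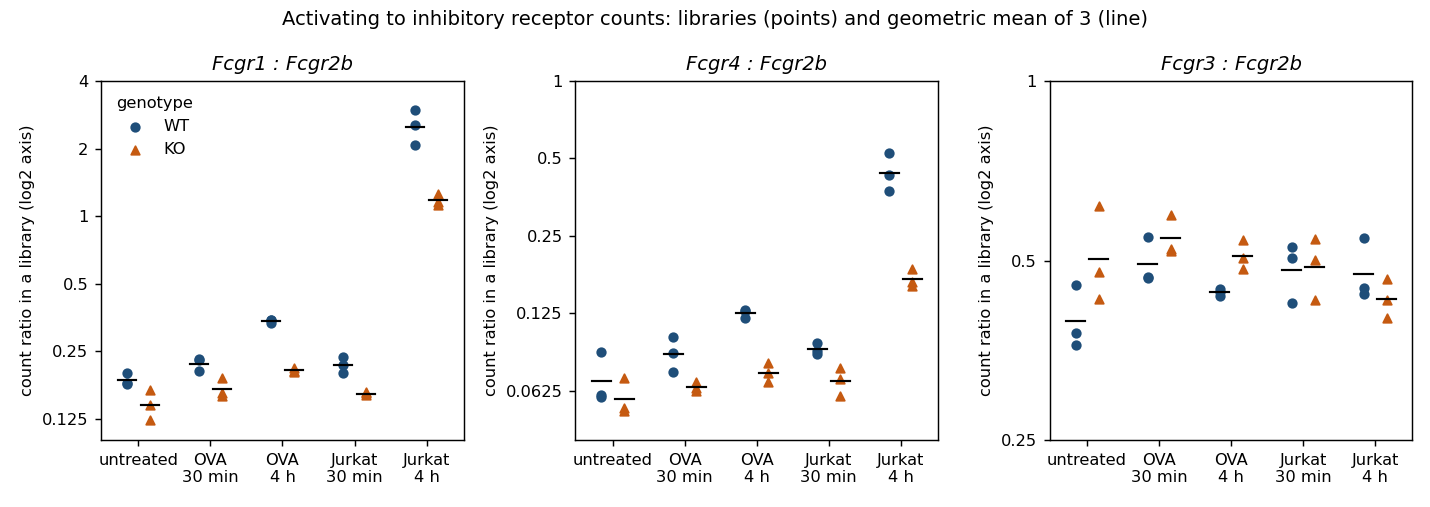
Ratio of counts within a library (y axis, log2 scale) of Fcgr1, Fcgr4 and Fcgr3 to Fcgr2b in the 10 groups, with 1 point per library and a line at the geometric mean of 3. For Fcgr1 every WT library lies above every KO library of its condition, from 0.178 to 0.2 against 0.123 to 0.167 untreated and from 2.07 to 2.98 against 1.12 to 1.25 at 4 h of Jurkat cells.

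B2m, the light chain that FcRn shares with MHC class I, moved against its partner Fcgrt. Untreated WT cells held 1407 ± 62.9 CPM and KO cells 1010 ± 37.7 CPM of B2m, and with 4 h of Jurkat cells they held 3341 ± 306 and 2706 ± 99.7 CPM. B2m rose by 1.25 on the log2 scale in WT (FDR 3.4e-19) and by 1.42 in KO cells (FDR 1.88e-20). The ratio of Fcgrt to B2m counts went from 0.144, 0.158 and 0.16 in untreated WT libraries to 0.0135, 0.0105 and 0.0126, which is 12.7-fold lower. In KO cells it went from 0.165, 0.199 and 0.196 to 0.0151, 0.0133 and 0.0127, which is 13.6-fold lower. All libraries at 4 h of Jurkat cells lay below all untreated ones.

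B2m was lower in KO cells in all 5 conditions, by 0.48 in untreated cells (FDR 1.73e-07) and by 0.30 at 4 h of Jurkat cells (FDR 7.89e-05). The Fcgrt to B2m ratio was correspondingly higher in KO cells without overlap in 4 conditions, by 0.28 to 0.47 on the log2 scale, and overlapped at 4 h of Jurkat cells (0.17, exact permutation p = 0.4). Of 10 genes of the FcRn and MHC class I light chain list, 8 were called higher and 2 lower with 4 h of Jurkat cells in WT (median 0.88), where 38.9% of all genes tested were called higher and 40.6% lower (median -0.02). Fcgrt fell where Tapbp, Tap1 and Tap2, which load peptide on class I, rose by 1.81, 1.76 and 1.45, and Hfe, another B2m-binding heavy chain, fell by 1.88.

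Downstream of the receptors, the kinase Syk, which docks on the phosphorylated ITAM, rose with 4 h of Jurkat cells from 394.5 ± 14.2 to 625.2 ± 27.5 CPM in WT (log2 0.66, FDR 2.28e-15) and by 0.75 in KO cells (FDR 1.23e-16). Syk was not called between the genotypes in any condition. Lyn, a Src-family kinase that phosphorylates ITAMs and ITIMs, rose by 0.27 in WT (FDR 1.84e-06) and by 0.13 in KO cells (FDR 0.00594), and was lower in KO at 4 h of Jurkat cells by 0.22 (FDR 0.00043). Tyrobp, an ITAM adaptor of other receptors, was called lower in KO cells at 30 min (-0.20, FDR 0.0148) and 4 h of Jurkat cells (-0.15, FDR 0.0349). Its difference was -0.13 in untreated cells (FDR 0.122), and -0.15 at 30 min (FDR 0.0574) and 4 h of OVA (FDR 0.058), without a call. The genotypes did not overlap for Tyrobp in any condition.

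The phosphatases of the inhibitory arm went separate ways. Inpp5d, whose product binds the Fcgr2b ITIM, fell with 4 h of Jurkat cells from 564.9, 591.1 and 626.6 CPM to 195.1, 189.2 and 177.5 CPM in WT (log2 -1.67, FDR 3.13e-23) and by 1.58 in KO cells (FDR 1.16e-22). It was not called between the genotypes in any condition. Ptpn6, a tyrosine phosphatase that ITIMs recruit, rose from 820.2 ± 26.0 to 1083 ± 76.2 CPM in WT (log2 0.40, FDR 1.27e-09) and was lower in KO at 4 h of Jurkat cells by 0.27 (FDR 5.13e-05). Ptpn6 was also called lower in untreated KO cells (-0.13, FDR 0.0444), and in no other condition.

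Of 36 genes of ITAM adaptors and proximal kinases, 23 were called higher and 10 lower with 4 h of Jurkat cells in WT (median log2 difference 0.37), against 79.5% of all genes called. Among those named by smallest p, the regulatory kinase subunit Pik3r5 rose from 189.8 to 862.7 CPM and the kinase Src from 5.811 to 45.68 CPM. The adaptors Card9 and Lat2 fell by 2.32 and 1.55. Between the genotypes, 5 were called higher and 10 lower in KO at 4 h of Jurkat cells (22.9% of all genes), and 3 higher and 4 lower in untreated cells (9.97%).

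Of 19 inhibitory signalling genes tested, 7 were called higher and 11 lower in WT with 4 h of Jurkat cells (median -0.45), against 79.5% of all genes called. The inhibitory receptor Lilrb4a rose from 131.6 to 1042 CPM, while the adaptor Dok3 fell from 82.02 to 11.03 CPM and the phosphatase Ptpn22 from 70.38 to 19.61 CPM. Between the genotypes, 2 were called higher and 3 lower in KO at that time, a share near the 22.9% of all genes. As for Fcgr2b, the fall of Dok3 was smaller in KO cells (difference in response 0.45, FDR 0.0201), as was that of Card9 (0.46, FDR 0.00185), and Lcp2, an adaptor downstream of Syk, had a difference of -0.24 (FDR 0.0405).

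Receptors other than the 6 members that use the Fcer1g chain were also measured. Of 9 tested, 5 were called higher and 1 lower with 4 h of Jurkat cells in WT, a smaller share than the 79.5% of all genes. The C-type lectin genes Clec4e and Clec4d went from 3.463 to 336.1 CPM and from 29.23 to 119 CPM. Clec4n, the gene of Dectin-2, was the 1 of 9 called between the genotypes at 4 h of Jurkat cells, a smaller share than the 22.9% of all genes. Clec4n was higher in KO by 0.67 (FDR 2.34e-05), as in untreated cells (0.53, FDR 0.000912). It stood with Fcgr3 and against Fcgr1 and Fcgr4 in its direction.

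Among 11 other Fc receptor genes tested, 4 rose and 1 fell with 4 h of Jurkat cells in WT, again a smaller share than the 79.5% of all genes. Trim21, the cytosolic receptor for antibody, rose from 47.78 to 151.2 CPM and was called lower in KO cells in 4 of 5 conditions, by between 0.24 and 0.33. Fcrla, a B cell Fc receptor-like gene, fell by 1.70 and was higher in KO at 4 h of Jurkat cells by 0.63 (FDR 0.000322). Of 29 phagocytic cup and actin genes, 17 were called higher and 11 lower in WT (79.5% of all genes called). Their genotype calls numbered 5 higher and 5 lower at 4 h of Jurkat cells (22.9% of all genes), among them Itgam, the alpha chain of a complement receptor, higher in KO by 0.35 (FDR 5.44e-05).

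Likeness was measured as Pearson's r of log2 CPM over libraries, as a description, among 10222 genes with a mean of at least 5 CPM. Libraries share their depth, treatment and genotype, so r over the 24 libraries without 4 h of Jurkat cells is given. Fcgr1 was most like Ms4a6b (0.921), Fcgr3 like Fam198b (0.936) and the macrophage mannose receptor gene Mrc1 (0.930), and Fcgr4 like Degs1 (0.874) and Clec12a (0.838). Fcgr2b was most like Abca6 (0.942) and the interferon gamma receptor gene Ifngr1 (0.921), Fcer1g like Cd52 (0.933) and the class I gene H2-D1 (0.888), and Fcgrt, with lower values, like Pianp (0.839). Among the members themselves, over the same 24 libraries, Fcgr1 went with Fcer1g (0.853) and Fcgr4 (0.831), Fcgr3 with Fcgr2b (0.704), and Fcgr1 against Fcgr2b (-0.639), while Fcgr1 and Fcgrt gave 0.091.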

How the data were processed

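The authors deposited whole-number read counts per gene, with gene symbol, Entrez identifier and mm10 interval, per the file headers. STAR 2.5, Subread, featureCounts 1.5.0-p1 and DESeq2 are named in the submitters' processing notes. Their settings, the annotation, strand use and handling of human reads were not given in the sources used here. Groups came from the sample titles.

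From these counts, TMM factors, filterByExpr by group (14808 genes kept, with 99.99% of counts) and edgeR 4.0.16 (R 4.3.3) were used in 1 model of 30 libraries with a mean per group, two-sided. The SE is the log2 difference over the root of its F statistic. TMM factors were 0.765 to 0.842 at 4 h of Jurkat cells and 1.03 to 1.07 elsewhere. The common biological coefficient of variation was 0.0515. The method was run on simulated counts with the same spread for every gene and changes in untreated KO cells alone. These held no shift like that at 4 h of Jurkat cells, so the run does not speak to those comparisons.

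The members and lists were chosen with earlier results of these data known. Beyond members and fixed partner genes, up to 3 genes per list and direction were named by smallest p, at a mean of at least 5 CPM. Same-numbered KO and WT untreated libraries deviated together (r 0.272, 0.146 and 0.111), but not every one of them correlated best with its own number. In each of the other 16 comparisons checked at least 1 of the 3 pairs had an r under 0.1, and the labels do not say what a number shares. Alternatives were other scaling, filters, a replicate block, groups fitted alone, DESeq2 1.42.0 and each library left out. Sequences came from RefSeq (GRCm38.p6 promoters, 6 of 6 members matched) and GENCODE M21 transcripts. Protein sequences were not used here.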

Additional observations from a re-analysis of the deposited data

Results flagged for a closer look

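For 2 of the 6 genes the response to 4 h of Jurkat cells differed between the genotypes in edgeR's test of that difference. For Fcgr2b, KO cells went from 128.4 to 68.28 CPM and WT cells from 120.4 to 49.04 CPM, and the difference in log2 response was 0.38 (SE 0.0656, FDR 0.00109). For Fcgr4, KO cells went from 7.514 to 11.61 CPM and WT cells from 8.302 to 21.69 CPM, and the difference was -0.76 (SE 0.193, FDR 0.0234). The Fcgr2b call held with each of the 12 libraries left out in turn, and the Fcgr4 call was lost in 6 of those 12 fits. Without KO Jurkat 4 h replicate 2, the library rich in ribosomal RNA counts, the differences were 0.41 for Fcgr2b (FDR 0.00108) and -0.71 for Fcgr4 (FDR 0.0547).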

How the results depend on the processing

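Of 2034 member results recomputed under 9 other settings and with each library left out, 1952 kept their side of the threshold, 57 lost a call, 25 gained one and 0 turned a called direction, while 49 that were never called changed sign. The number of members called moved by more than 1.5 times in 8 comparisons. For KO against WT at 30 min of OVA it was 1, and 2 with DESeq2, 3 with the groups fitted alone, 0 with the stricter filter and 0 to 1 with a library left out. At 30 min of Jurkat cells, KO against WT gave 3, and 0 to 3 with a library left out. The difference in response to 4 h of Jurkat cells gave 2, and 1 with the groups fitted alone and 1 to 3 with a library left out. Jurkat cells at 30 min against untreated cells gave 0 in each genotype. In WT this became 1 with the stricter filter, with total counts and with TMM factors made without genes higher with Jurkat cells, and 0 to 1 with a library left out, and in KO 1 with those TMM factors. WT Jurkat cells against OVA at 30 min gave 0, and 1 under the same 3 settings and 0 to 2 with a library left out. KO Jurkat cells against OVA, and KO OVA against untreated cells, each gave 1 at 30 min, and 0 to 1 with a library left out.

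A replicate block, over all groups or within genotype, changed no member's call in any of 21 comparisons. KO against WT kept 3 members called in untreated cells and 5 at 4 h of Jurkat cells, and the pairing moved the count over all genes in untreated cells from 1477 to 1498. In 2 of 17 comparisons every library correlated best with its own number. These were 4 h of OVA and 30 min of Jurkat cells, each against untreated cells, in WT.

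Depth limited Fcgr4 most, with 71 counts in the shallowest library.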
